A study of Danio rerio with 6 samples.

Results

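The scars described here each carried 2 deletions in the same GFP read, no insertion, and more than 10 matched bases between the deletions. They were chosen from the read counts of 6 zebrafish: a scar entered when it had 10 or more reads in at least 1 library, a library being a barcode with 1000 or more reads. By this rule 795 different scars were members, 18.6% of the 4273 different scars of any form that passed the same read limit. A member could be kept in several fish, and the 795 scars gave 1092 combinations of a member and a fish.

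In ScarTrace, a lineage-tracing method, a zebrafish embryo that carries a tandem array of H2A-GFP transgenes is injected at the 1-cell stage with Cas9 and a guide RNA (sgRNA) against GFP. Fish R1, R2 and R3 received Cas9 RNA and fish P1, P2 and P3 received Cas9 protein; all 6 shared the transgene and the guide, and no uninjected fish was in the series. Each fish is 1 animal, from which small parts of many body structures were dissected at 1 year of age and given a barcode each. Barcodes were used here by number, so no tissue is named, and a barcode may be a technical replica of another. The strain of the fish was not given in the sources used here.

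Cas9 cuts both strands of DNA at the site that its guide matches, and the cell joins the ends again, often with loss or gain of bases. Such a scar is inherited by all descendants of the cell in which it arose, and it usually destroys the match to the guide, so that the copy is not cut again. A scar with a single deletion over the cut is the simplest form. Positions are counted from 1 at the first base of the GFP reference of 720 bp that the scars were mapped to.

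The 6 fish held 130 libraries, 31 in R1, 13 in R2, 14 in R3, 26 in P1 and 23 in each of P2 and P3, with 8876393, 1221515, 2334190, 15405490, 6444785 and 5218309 scarred reads in that order of fish. R2 stood apart, since 13.9% of its reads were scarred, against 55.4% to 73.9% in the other 5 fish. Members numbered 313 in R1, 65 in R2, 79 in R3, 320 in P1, 163 in P2 and 152 in P3, the same order as the scarred reads of the fish. Counting error is the only error that the intervals below cover, because PCR reads without molecular identifiers are not independent molecules.

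Most read patterns of this kind lay below the read limit. Pairs of distant deletions with any read numbered from 1009 in R2 to 4688 in P1, and over the fish 9838 different pairs were seen. Of these, between 586 in R2 and 2458 in P1 had a single read in the whole fish. Between 5 and 25 members of a fish had exactly 10 reads in their best library, and between 6 and 28 pairs just outside the limit had 9. At the limit of spacing, 7 to 19 members of a fish had 11 matched bases between the deletions, and 3 to 25 scars just outside had 10. The spacing reached 59 bases and had a median of 22.

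Most inner deletions lay at or near the base most often deleted, with the outer deletion to either side. The inner deletion was defined as the one nearer to the base that single-deletion scars of the same fish removed in most reads, which was base 542 in R1, R3 and P1, base 544 in R2 and P2, and base 545 in P3. In 741 of the 1092 combinations (67.9%) the inner deletion removed that base itself, from 48.7% in P3 to 79.8% in P2. In the other 351 it was only the nearer of the pair, and inner deletions began anywhere from base 512 to base 560. Inner deletions had a median length of 8 bp and reached 50 bp. The inner deletion found in most combinations removed bases 542 to 547 (47 combinations in 6 fish), followed by bases 542 to 544 (45 combinations) and bases 535 to 545 (33 combinations).

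Outer deletions were short. Their median length was 1 bp in every fish, and 679 of the 1092 were 1 bp long. By fish, the outer deletion was 1 bp in 55.6% of members in R1, 61.5% in R2, 70.9% in R3, 65% in P1, 66.3% in P2 and 61.2% in P3. Both deletions were 1 bp in 1 to 12 members of a fish, and in 339 combinations both were longer. The total number of deleted bases was a multiple of 3 in 34.2% of combinations.

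**Figure D1:**
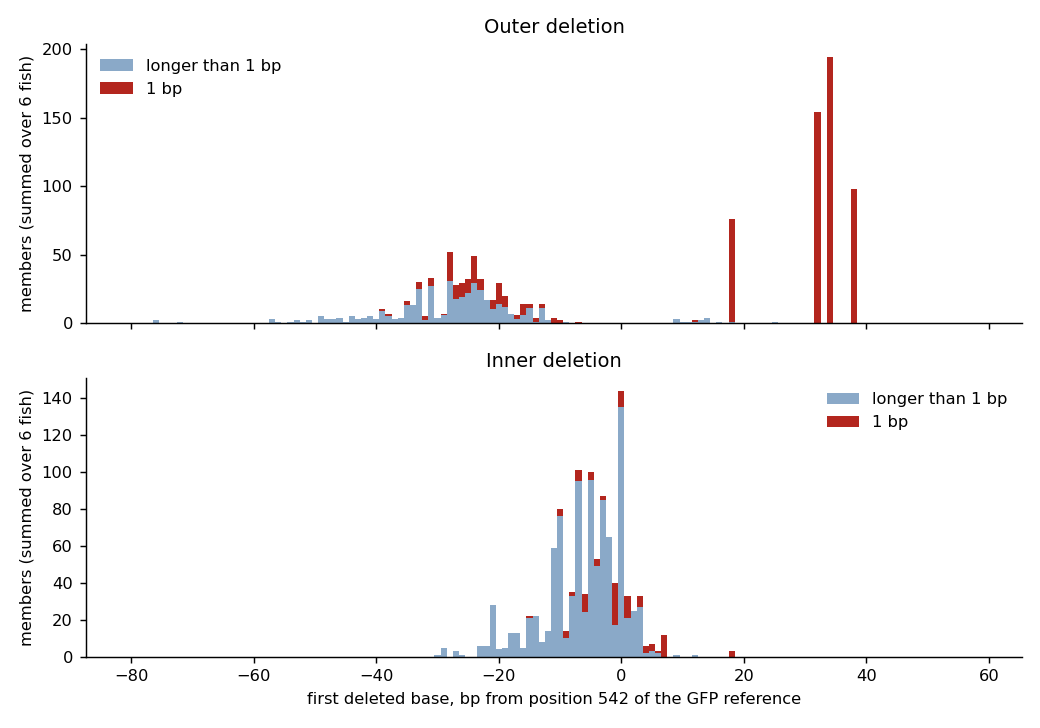
First deleted base of the outer deletion (upper panel) and the inner deletion (lower panel) of all 1092 combinations of a member and a fish, in bases from position 542 of GFP, with 1-bp deletions in red and longer ones in blue; the vertical axis counts combinations. Inner deletions gather around 0, upstream outer deletions form a broad group of mixed lengths, and downstream outer deletions stand almost all at 4 positions and are 1 bp long.

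The sides of the inner deletion differed in the form of the outer deletion. Of the outer deletions, 555 were upstream of the inner deletion and 537 downstream. Downstream, 522 of the 537 were 1 bp long, from 92.8% in P3 to 100% in P2. Upstream, 157 of the 555 were 1 bp long, from 19.3% in R1 to 42.1% in R3. Upstream outer deletions had a median length of 3 bp, reached 28 bp and began between bases 496.7 and 527.3 at the 5th and 95th percentile, with a median of 516. The fish did not overlap between the sides in the share of 1-bp deletions.

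Downstream 1-bp deletions recurred at 4 positions. Base 576 was missing beside 107 different inner deletions (194 combinations), base 574 beside 89 (154 combinations), base 580 beside 63 (98 combinations) and base 560 beside 45 (75 combinations), each in all 6 fish. Together they made 521 combinations, 99.8% of the downstream 1-bp deletions and 47.7% of all combinations. The remaining downstream 1-bp deletion was at base 554, beside a single inner deletion. In 3 further combinations a deletion at 1 of the 4 positions was the nearer of the pair and was counted as inner. A member at 1 of the 4 positions made up 142 of 313 members in R1 (45.4%), 34 of 65 in R2 (52.3%), 40 of 79 in R3 (50.6%), 149 of 320 in P1 (46.6%), 80 of 163 in P2 (49.1%) and 76 of 152 in P3 (50%). The other 16 downstream combinations began between bases 551 and 567, and 7 of them were in P3.

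The same 4 deletions were also present on GFP without any other scar, at nearly the same rates when single-deletion scars and libraries were pooled. Base 576 was missing on 0.215% of the reads of single-deletion scars in R1, 0.176% in R2, 0.142% in R3, 0.148% in P1, 0.151% in P2 and 0.140% in P3. On otherwise unscarred reads it was missing on 0.248%, 0.172%, 0.146%, 0.143%, 0.144% and 0.148% in the same order. R1 was the highest fish on single-deletion scars and on unscarred reads alike.

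Over the 6 fish, the mean rate at base 576 was 0.162 ± 0.0288% (SD, n = 6) on single-deletion scars and 0.167 ± 0.0414% on unscarred reads. The difference was -0.00457 percentage points, with a range from -0.0334 to 0.00721 over the fish (exact sign-flip permutation test, two-sided, p = 0.69, adjusted p = 0.97 over the 4 positions). At base 574 the means were 0.103 ± 0.0203% and 0.102 ± 0.0285% (exact permutation p = 0.97, adjusted p = 0.97). Bases 580 and 560 were missing less often. At base 580 the means were 0.0534 ± 0.00197% and 0.0535 ± 0.00275%, and at base 560 they were 0.0682 ± 0.0101% and 0.0671 ± 0.00737% (exact permutation p = 0.91 and 0.53, adjusted p = 0.97 for each). These 4 tests were chosen after the values had been seen, and the 4 positions were picked from the members of the same data. The tests used rates pooled over libraries, without pairing by library. Among libraries with 10000 or more reads of each kind, base 574 was missing more often on single-deletion scars in most libraries of every fish. It was so in 18 of 29 in R1, 6 of 11 in R2 and 10 of 14 in R3. In P1, P2 and P3 the counts were 17 of 25, 16 of 22 and 9 of 17. Bases 576, 580 and 560 had no such majority in every fish. These counts were not tested.

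The ratio of the rate on single-deletion scars to that on unscarred reads lay between 0.861 and 1.17 in the 24 combinations of fish and position. In 17 of the 24 the 95% Wilson intervals overlapped, and in the other 7 they did not. The lowest ratio was at base 574 in R1 (0.133% against 0.155%) and the highest at the same base in P2 (0.0935% against 0.0800%). Libraries were pooled in these ratios. Over the 29 libraries of R1 with 10000 or more reads of each kind, the direction at base 574 was the opposite. The median was 0.186% on single-deletion scars and 0.161% on unscarred reads. At base 576 in R1, the rate on single-deletion scars was the higher in 19 of 29 libraries, against a lower pooled rate. Rates were set over 132 to 341 kept single-deletion scars of a fish, those more than 10 bp away from the position. Individual scars with 50000 or more reads differed from the pooled rate in some fish. At base 576 their rates ran from 0.0156% to 0.230% in P1 (median 0.156%) and from 0.176% to 0.518% in R1 (median 0.207%). In P3 they ran only from 0.132% to 0.155%.

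**Figure D2:**
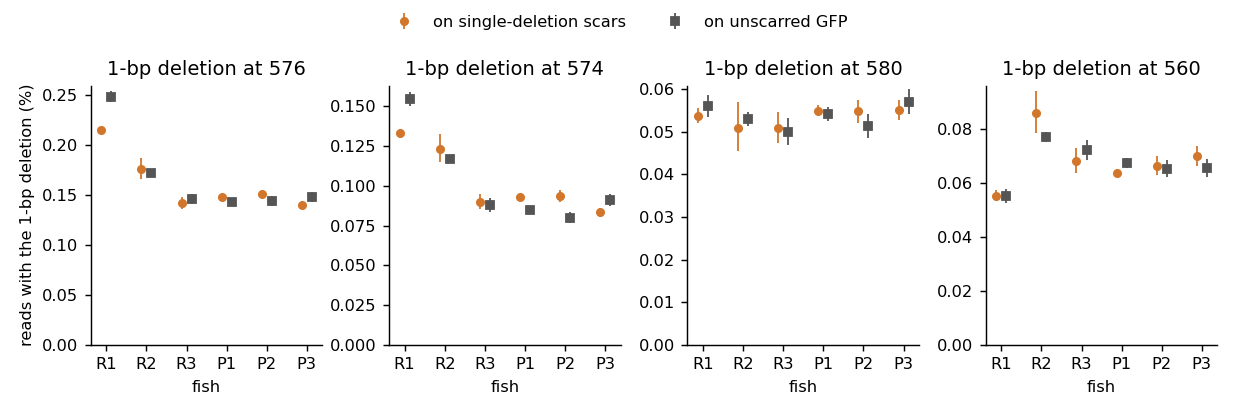
Percentage of reads that lack base 576, 574, 580 or 560 (1 panel each) on single-deletion scars (circles) and on otherwise unscarred GFP (squares) in each fish, with 95% Wilson intervals that cover counting error only. The circles and squares of a fish lie close together in every panel, and R1 is highest for both at bases 576 and 574.

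The rate varied more between libraries of a fish than between the kinds of read. In R1, over the 29 libraries with 10000 or more reads of each kind, base 576 was missing on 0.0630% to 0.375% of the reads of single-deletion scars (median 0.275%) and on 0.0655% to 0.337% of unscarred reads (median 0.276%). Libraries with a high rate on one kind had a high rate on the other (Pearson correlation 0.926 across these libraries, given as a description because each point shares its library, its PCR and its depth). The lowest and highest such correlations over the fish were 0.840 and 0.966 at base 576, 0.819 and 0.958 at base 574, 0.270 and 0.745 at base 580, and -0.504 and 0.170 at base 560. The relation was thus positive in every fish at bases 576, 574 and 580, while at base 560 its sign differed between fish.

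Most downstream members stood at a low share of the scar with their inner deletion alone, called the single-deletion scar here. Reads of a downstream member had a median of 0.175% of the reads of its single-deletion scar in R1, 0.171% in R2, 0.0954% in R3, 0.0976% in P1, 0.105% in P2 and 0.0998% in P3. The middle 50% of downstream members lay between 0.0691% and 0.230% in R1, and between 0.0624% and 0.155% in P1. A few stood far above this, with the highest at 8% in R1, 8.53% in R3, 91.7% in P1 and 2500% in P3, against 0.362% in R2 and 0.283% in P2. Upstream members were spread far more widely, with medians of 0.451% in R1, 2.32% in R2, 8.10% in R3, 0.736% in P1, 8.56% in P2 and 8.36% in P3. Their middle 50% ran from 0.0414% to 7.71% in R1 and from 0.219% to 99.3% in P2. High ratios can rest on few reads of the single-deletion scar. In 46 combinations that scar stood below the read limit in every library. Where it had no read at all, the member had no ratio and was left out of the medians and ranges above. A pair at 11100% in P3, for example, was set against 6 reads.

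Some members had more reads than the scar with the inner deletion alone. There were 79 such combinations upstream, 13 in R1, 7 in R2, 9 in R3, 13 in P1, 21 in P2 and 16 in P3. Downstream there were 5, all in P3. Members whose single-deletion scar had no read are included in these counts. The single-deletion scar was itself kept in the same fish for 1046 of the 1092 combinations, and for 646 both deletions were also kept as scars of their own. The outer deletion alone was seldom kept for upstream pairs, with both deletions kept alone in 37 of 166 in R1 and 13 of 83 in P2. For downstream pairs both were kept alone in 144 of 147 and 80 of 80.

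**Figure D3:**
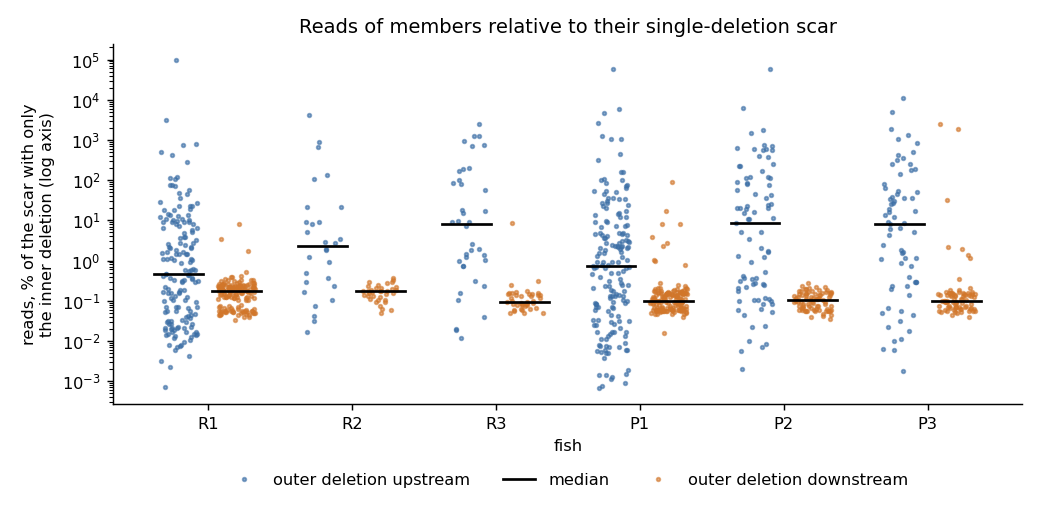
Reads of each member as a percentage of the reads of the scar with its inner deletion alone (log axis), for upstream and downstream outer deletions in each fish. Each point is a member for which that scar had reads, and the black line is the median of these points. The middle 50% of downstream members lies within 0.0624% to 0.230% in every fish, with a few members far above in some fish. Upstream members run over several powers of 10 and pass 100% in every fish.

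Upstream outer deletions were diverse. They comprised 160 different deletions, of which 24 were 1 bp long. The most recurrent removed bases 518 to 522 and stood beside 20 inner deletions in 5 fish. The next were the loss of base 514 (14 inner deletions in 6 fish), of base 518 (14 in 3 fish) and of bases 509 to 512 (13 in 5 fish). Each of these stood beside fewer inner deletions than any of the 4 downstream positions. Some of the different upstream deletions were alike. In P3 the deletions of bases 485 to 497, 489 to 497, 494 to 497 and 470 to 497 all stood beside bases 521 to 547. The first had 147230 reads and the others 1074, 347 and 186. Whether such deletions arose separately was not tested. Although upstream and downstream members were similar in number, upstream members held 85.3% of the member reads in R1, 82% in R2, 57.1% in R3, 87.2% in P1, 91.2% in P2 and 83.2% in P3.

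Member reads were held by a few scars in each fish. The 3 members with most reads held 65.1% of the member reads in R1, 47.6% in R2, 33.4% in R3, 67.5% in P1, 75.3% in P2 and 86.7% in P3. The median member of a fish held between 0.000415% of scarred reads in P1 and 0.00287% in R2. Of the 18 cases of a leading member, 16 were upstream pairs, and 1 pair was among the leading 3 in both P1 and P2. Several others also had reads in another fish. The pair of base 517 and bases 535 to 543 of R1 was kept in R3 with 14 reads. The pair of base 522 and base 541 of R2 was kept in P3 with 91 reads. The first member of P1 had 44 reads in P2.

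In R1 the leading member lacked bases 491 to 508 and 532 to 549. It had 101310 reads, 1.14% of scarred reads, and no read in the other 5 fish, where 0 reads allow at most 0.000246% of scarred reads (R2). It was present in all 31 libraries, from 0.273% to 2.29% of scarred reads with a median of 0.555%, and had 46.7% as many reads as the scar with bases 532 to 549 deleted alone. The other leading members of R1 were high in a single library each. The pair that lacked base 517 and bases 535 to 543 reached 8.85% in barcode 16, next to 0.243% in the second highest library and a median of 0.00619%. The pair that lacked bases 521 to 522 and 540 to 541 reached 1.20% in barcode 6 and at most 0.0139% (5 reads) elsewhere.

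In R2 each leading member was nearly confined to 1 or 2 libraries. The pair of bases 496 to 514 and 527 to 544 made 4.30% of scarred reads in barcode 10 and at most 0.00538% (4 reads) in the other 12 libraries. The pair of bases 526 to 530 and 542 to 544 reached 0.860% in barcode 11 and 0.00270% (4 reads) in the next library. The pair of base 522 and base 541, with both deletions 1 bp long, reached 1.45% and 1.29% in its 2 highest libraries and had 0 reads in 7. It had 1.36 times the reads of its single-deletion scar.

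In R3 none of the leading 3 members reached 1% of scarred reads in any library. The pair of bases 518 to 522 and 537 to 538 reached 0.904% in barcode 3 and 0.259% in the next library. The pair of bases 536 to 541 and 553 to 559 was a downstream pair with a 7-bp outer deletion, and it reached 0.520% in barcode 13 against 0.0423% in the next library. The pair of bases 529 to 530 and 542 to 543 had similar levels in its 2 highest libraries, 0.188% and 0.166%.

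In P1 the leading member lacked base 514 and bases 539 to 547. It had 156394 reads, 1.02% of scarred reads, and was present in all 26 libraries. It passed 1% in 5 of them, the highest at 6.80%, while the lowest was 0.0486% and the median 0.0739%. It had 3.26 times the reads of its single-deletion scar. The pair of bases 517 to 519 and 542 to 545 was high in barcode 25 alone, at 2.15%, which held 94.8% of its reads. The next value, 0.109%, rested on 2 reads in barcode 16, and the other libraries were at or below 0.0191%. The pair of base 518 and bases 540 to 542 was high in barcode 24, at 0.958%, which held 94.7% of its reads.

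In P2 the leading member lacked bases 515 to 516 and 531 to 544, had 41695 reads, and reached 8.16% of scarred reads in barcode 1. That library held 96.9% of its reads, and the other 22 were at 0.0133% to 0.0522%, the highest of these from 9 reads. Its single-deletion scar had 73 reads in the whole fish. The second member, again the pair of base 518 and bases 540 to 542, was spread over all 23 libraries, from 0.112% to 1.22% with a median of 0.632%. It had 6.49 times the reads of its single-deletion scar, and the shares of both over the 23 libraries had Pearson's r = 0.959, a description of points that share their libraries. The pair of base 527 and bases 540 to 542 followed at 0.0131% to 0.111%.

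In P3 the leading member lacked bases 485 to 497 and 521 to 547. It had 147230 reads, 2.82% of the scarred reads of the fish, and 0 in the other fish, under the same limit. It was present in all 23 libraries, passed 1% in 12 of them and reached 23.6% in barcode 9, with a lowest value of 0.110% and a median of 2.13%. The scar with bases 521 to 547 deleted alone had 2920 reads, so that the pair had 50.4 times as many. The second member, base 542 with bases 556 to 557, was a downstream pair that reached 3.04% in barcode 13 and 0.604% in the next library. The pair of base 522 and base 536 was spread over all 23 libraries, from 0.0287% to 1.32%.

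The leading members thus came in 2 forms. Those of R1 (first), P2 (the pairs with bases 540 to 542) and P3 (the upstream pairs) had a median library at 48.6% to 121% of the pooled share of the fish. The other 13 had a median library at or below 10.9% of it, with their reads in few libraries and traces or zeros in the rest. The source of the traces was not tested.

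**Figure D4:**
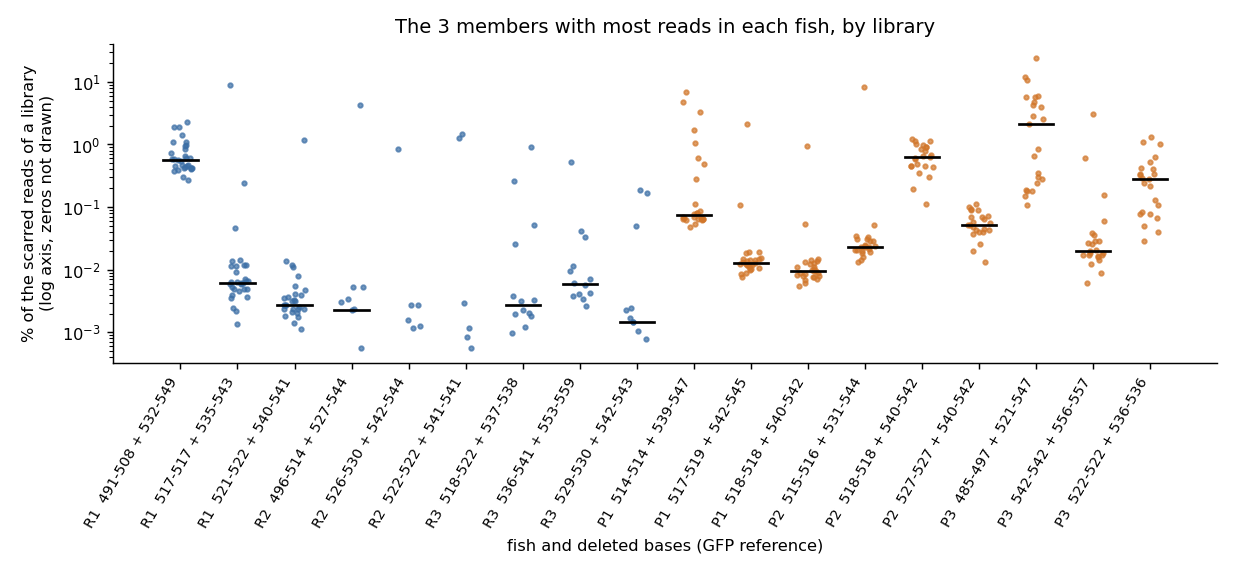
Share of the scarred reads of a library (percent, log axis) for the 3 leading members of each fish, with a point for each library, a black line at the median, blue for Cas9 RNA and orange for Cas9 protein; libraries without a read are not drawn. Several members have 1 or a few high libraries and a dense group of low ones, while the first members of R1 and P3 and the second of P2 are spread at higher levels.

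The outer deletions of the leading members were rare on GFP without another scar. Among otherwise unscarred reads they had 0 reads in 10 of the 18 cases, which allows from 3.81e-05% (P1) to 0.00016% (R3) of unscarred reads at 3 reads a fish, and at most 0.108% of reads, for bases 518 to 522 in R3. Among the reads of the pair and of its single-deletion scar they were on 2.86% to 99.8%. Reads of other scars with the same inner deletion were left out of this share. The leading members were picked for their many reads, so a high share beside the inner deletion follows in part from that choice. The 4 downstream positions were also picked from these data, as those beside most inner deletions among the members. Their rates, given above, were pooled over kept single-deletion scars, with or without a kept pair at the position. The 2 sets of values therefore cannot be compared directly.

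The pair of base 518 and bases 540 to 542 shared 5 companions between P1 and P2, other upstream deletions beside bases 540 to 542. P1 kept 10 such companions and P2 kept 6. A pair with base 527 in place of base 518 had 8.69% as many reads as it in P1 and 8.95% in P2, and a pair with base 521 had 6.51% and 6.57%. A pair with base 519 had 1.61% and 1.71%, and a pair with bases 516 to 519 had 1.73% and 1.66%. The most abundant companion kept in 1 of these fish alone lacked bases 521 to 522, and had 2.69% in P1 and 0 reads in P2. In P2, over the 11 libraries with 1000 or more reads of the leading pair, the pair with base 527 was at 7.89% to 10.1% of it. In P1 the values rest on 1 such library. No test was made of this likeness, which was noticed in the data.

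Most members were kept in a single fish, as were most other scars. Of the 795 different members, 631 (79.4%) were kept in 1 fish, 100 in 2, 29 in 3, 14 in 4, 8 in 5 and 13 in all 6. Of the 3478 kept scars that were no members, 81.3% were kept in 1 fish. Those kept in all 6 fish were 12 downstream pairs and 1 upstream pair. Downstream pairs were kept in 2 or more fish in 51.7% of cases in R1, 91.4% in R2, 75.6% in R3, 51% in P1, 71.3% in P2 and 53% in P3. For upstream pairs the values were 18.1%, 46.7%, 34.2%, 25.4%, 34.9% and 21.7%.

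The share was higher for downstream pairs in 6 of 6 fish, by a mean of 35.5 percentage points (range 25.5 to 44.8). With 6 fish the exact sign-flip permutation test gave p = 0.031, the smallest it can give, and the adjusted p over the 2 measures of this family was 0.063, above 0.05. A shared member counts in every fish that kept it, so the values of the 6 fish are not independent, which the test assumes. The other measure was the share of members kept in a single library, 60 ± 6.81% upstream and 49.4 ± 10.4% downstream (SD, n = 6, exact permutation p = 0.063, adjusted p = 0.063). Members without a read in any other fish, whatever the limit, numbered 83 of 313 in R1, 8 of 65 in R2 and 13 of 79 in R3. In P1, P2 and P3 they numbered 69 of 320, 29 of 163 and 51 of 152. These counts depend on the depth of the other fish. No matching share over all kept scars is given, so they are not read as a trait of members.

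**Figure D5:**
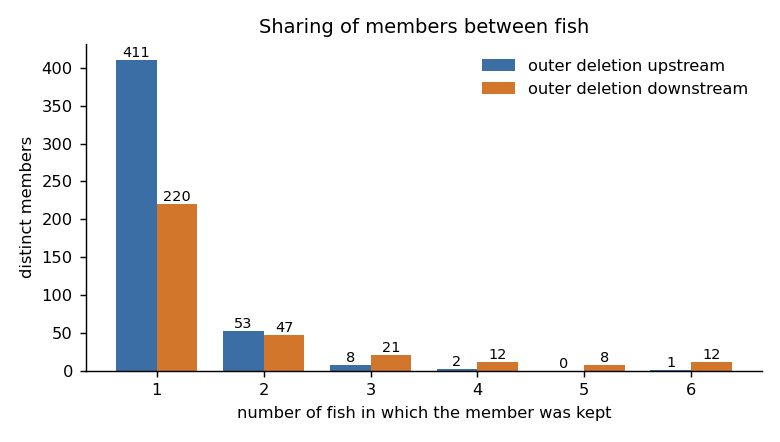
Number of different members by the number of fish that kept them, for upstream and downstream outer deletions. In 1 fish there were 411 upstream and 220 downstream members; in all 6 fish there were 1 and 12.

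Of the 13 members kept in all 6 fish, the 5 with the highest mean share of scarred reads are described. All but 1 of these joined a common single deletion to a recurrent position. The first lacked bases 542 to 547 and base 576, and held 0.0385% of scarred reads in R1, 0.0160% in R2, 0.0276% in R3, 0.0293% in P1, 0.00892% in P2 and 0.0187% in P3. Relative to the scar with bases 542 to 547 deleted alone, which held between 6.83% and 20.2% of scarred reads, it stood at 0.20%, 0.191%, 0.144%, 0.145%, 0.131% and 0.135%. The share of scarred reads thus varied more between the fish, with libraries pooled, than the ratio to the single-deletion scar. Between libraries the ratio was not steady. Over libraries with 10000 or more reads of the single-deletion scar it ran from 0.0558% to 0.379% in R1 (19 libraries). In R2 it ran from 0.126% to 0.203% (3 libraries), and in P3 from 0.0766% to 0.332% (15 libraries). The other downstream pairs among the 5 were the same inner deletion with base 574 or base 560, and bases 532 to 549 with base 576.

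The upstream pair kept in all 6 fish behaved differently. It lacked bases 514 to 521 and base 541, and held 0.0104% of scarred reads in R1, 0.0710% in R2, 0.0123% in R3, 0.00732% in P1, 0.00690% in P2 and 0.0163% in P3. Relative to the scar without base 541 alone it stood at 36.4%, 104%, 1.36%, 15.1%, 586% and 322% in the same order. It had 10 or more reads in 2 libraries of P1 and of P2, 3 of R3, 5 of R2, 6 of P3 and 10 of R1.

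Members were mostly seen in few libraries. In 575 of the 1092 combinations a member had 10 or more reads in a single library, from 49.3% of members in P3 to 69.2% in R2. It had that many in every library of the fish in 8 combinations, all upstream pairs, with 1 in R1, 1 in P1, 3 in P2 and 3 in P3. This measure depends on depth, since a rare member reaches 10 reads only in a deep library.

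All members together made up 2.06% of scarred reads in R1, 0.802% in R2, 0.510% in R3, 2.02% in P1, 1.63% in P2 and 4.05% in P3. Without the first scar of each fish these shares were 0.923%, 0.641%, 0.426%, 1.01%, 0.986% and 1.22%. Between libraries the share ran from 0.837% to 10% in R1 (median 1.73%), from 0.0525% to 4.57% in R2 (1.08%) and from 0.25% to 1.76% in R3 (0.353%). In the Cas9 protein fish it ran from 0.406% to 7.62% in P1 (0.943%), from 0.375% to 9.91% in P2 (1.19%) and from 0.683% to 24.5% in P3 (3.41%). The ranges of all 6 fish overlapped.

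The kinds of injection were compared because they differ in how long Cas9 stays active. Members held 1.13 ± 0.826% of scarred reads with Cas9 RNA and 2.57 ± 1.30% with Cas9 protein (SD, n = 3 each, exact permutation test, two-sided, p = 0.30, adjusted p = 0.80). They numbered 152 ± 139 and 212 ± 94.0 (exact permutation p = 0.50, adjusted p = 0.80). Relative to scarred reads the direction was the opposite, with more members in each Cas9 RNA fish than in any Cas9 protein fish. The nearest fish were R3, with 79 members on 2334190 scarred reads, and P3, with 152 on 5218309. This ratio was highest in R2 and lowest in P1, the fish with fewest and most scarred reads, and it was not tested. Relative to all kept scars of a fish the groups were not separated. Members made 18.97% of the kept scars in R1, 13.08% in R2 and 13.3% in R3. In P1, P2 and P3 they made 19.75%, 20.9% and 15.61%. These shares were not tested either, and the ratio to scarred reads is not read as a trait of members. The outer deletion was 1 bp in 62.7 ± 7.71% and 64.1 ± 2.64% (exact permutation p = 0.90, adjusted p = 0.90), and 53.4 ± 18.6% and 43 ± 8.46% of members were kept in 2 or more fish (exact permutation p = 0.60, adjusted p = 0.80). With 3 fish in each group the smallest possible p is 0.10, so no difference of this kind could pass 0.05. The groups overlapped in each tested measure.

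Pairs of deletions with at most 10 matched bases between them are the most similar class of scar, and 728 of them were kept. The 4 recurrent downstream positions lie away from the base most often deleted, so the spacing itself placed most pairs that held them among the members. Such pairs made 521 of 1092 combinations of members and 21 of 855 combinations of close pairs. Values over all scars of each class are therefore a description. The outer deletion was 1 bp in 63.4 ± 5.22% of members and 33.8 ± 5.05% of close pairs (SD, n = 6 fish), and 48.2 ± 14.1% and 29.4 ± 9.51% were kept in 2 or more fish. The single-deletion scar was kept in the same fish for 94.9 ± 2.94% and 81.3 ± 7.34%. The mean share of the libraries of a fish in which a scar reached 10 reads was 14.7 ± 3.19% and 15 ± 4.63%, a difference of -0.324 points (range -4.51 to 5.15, exact sign-flip permutation test, p = 0.78, adjusted p = 0.78).

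Members and close pairs were compared again without the scars of either class that had their outer deletion at the 4 positions. The outer deletion was then 1 bp in 28.3 ± 9.35% of members and 32.1 ± 5.55% of close pairs, a difference of -3.80 points (exact sign-flip permutation test over 6 fish, p = 0.25, adjusted p = 0.50). Of members, 29.3 ± 10.5% were kept in 2 or more fish, and of close pairs 28.6 ± 9.55% (0.757 points, exact permutation p = 0.91, adjusted p = 0.91). The single-deletion scar was kept more often for members in 6 of 6 fish, by 9.80 points (exact permutation p = 0.031, adjusted p = 0.13), which did not pass 0.05. That p is the smallest that 6 fish can give. As the only 1 of 4 measures at that p, it could not pass 0.05 after adjustment, whatever the size of the difference. With the scars at the 4 positions included again, close pairs held 17.1%, 18% and 13.6% of scarred reads in R1, R2 and R3. In P1, P2 and P3 they held 1.37%, 0.589% and 8.09%. Over all scars of each class, members thus held less than close pairs in R1, R2, R3 and P3 and more in P1 and P2.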

How the data were processed

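The authors deposited, for each of the 6 fish, counts of reads per scar and barcode, mapped with BWA 0.7.16a per the submitters' processing notes, without normalization and before the study's own filters for sequencing error and for scars shared between fish. Scars are written as matched, deleted and inserted lengths on a GFP reference of 720 bp, which does not record substitutions. All columns belonged to the fish of this series. The sequence of the reference was not used here.

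From these counts, barcodes with 1000 or more reads (130) were used as libraries and shares were taken of the scarred reads, pooled per fish or within a library. The outer deletion is the one farther from the base most often deleted in single-deletion scars of the fish. Intervals are 95% Wilson intervals. The injections were compared by exact permutation of 3 against 3 fish (20 assignments), and kinds of scar or read within a fish by exact sign-flip permutation over 6 fish (64 patterns, smallest p 0.03125), two-sided, with Benjamini-Hochberg adjustment within each family. The groups followed the sample labels, 3 fish in each. Every test of sharing between fish has the limit that a shared scar counts in each fish that kept it.

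The scars named are the 3 members with most reads of each fish and the 5 kept in most fish, together with the 5 outer deletions found beside most inner deletions; further outer deletions, and the companions of the pair of base 518 and bases 540 to 542, were named after their values were seen. Members, rules and tests were chosen with earlier results of these data known. The tests of the 4 positions and of upstream against downstream members, and the results without those positions, were added after the values had been seen. The alternatives were other limits on the reads of a scar or a library, a wider spacing, the shorter deletion taken as outer, the mean over libraries in place of pooled reads, a replicate block and each fish left out. The scripts were tested on simulated data with known answers. The software was Python 3.11.15 with pandas 2.3.3, NumPy 2.4.6, SciPy 1.17.1 and Matplotlib 3.10.9.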

Additional observations from a re-analysis of the deposited data

Results flagged for a closer look

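Barcodes with fewer than 1000 reads were not used in the comparisons, and reads of members were nevertheless present in some of them in all 6 fish. They numbered 2 among 83 scarred reads in R1, 1 among 109 in R2 and 3 among 781 in R3. Only P1, P2 and P3 had more than the 3 reads used here as a floor. In P1 there were 9 such reads among 630 scarred reads, spread over 6 barcodes, in P2 there were 7 among 445 in 2 barcodes, and in P3 there were 10 among 373 in 2 barcodes. They made 1.43%, 1.57% and 2.68% of the scarred reads of the barcodes below the limit in P1, P2 and P3. In the libraries of the same fish members made 2.02%, 1.63% and 4.05%.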

How the results depend on the processing

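Over all scars, members and close pairs differed by 29.6 percentage points in 1-bp outer deletions, 18.9 in sharing and 13.7 in single-deletion scars kept (exact permutation, adjusted p = 0.042 each), which the spacing rule favours, and these differences depended on the read limit. At 100 reads in a library, 166 different members were left, and the differences were 4.97 percentage points in 1-bp outer deletions, -0.434 in sharing between fish and 18.3 in single-deletion scars kept; sharing differed by -10.4 points between Cas9 RNA and Cas9 protein fish. At 0.1% of the reads of a library, 49 were left, and the same values were -9.85, -3.62, 19.6 and -0.775. None of these passed adjusted p 0.05. With more than 20 matched bases between the deletions 362 were left, and the differences were larger. They were 48.3 points in 1-bp outer deletions and 33 in sharing (exact permutation, adjusted p = 0.042 each). The spacing rule favours these differences as well, because the 4 recurrent downstream positions lie away from the base most often deleted. No conclusion is drawn from these tests, since the rule that sets the classes also places those positions among the members. With the wider spacing, 1-bp outer deletions differed by 5.82 points between the injections. The share of libraries then differed by 1.27 points between members and close pairs. Without the 4 recurrent downstream positions, added after seeing the data, the differences between members and close pairs were -3.80, 0.757 and 9.80. Taking the shorter deletion as outer, libraries of 100 or more reads, or means over libraries changed no direction and no call. Depth limits which rare members reach 10 reads.

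With each fish left out in turn, the difference between members and close pairs ran from 28.9 to 30.4 points in 1-bp outer deletions, from 14.4 to 20.6 in sharing, from 12.4 to 14.8 in single-deletion scars kept and from -1.42 to 0.513 in share of libraries; 5 fish cannot give p below 0.0625, so no such call could hold. The difference between Cas9 RNA and Cas9 protein ran from -140 to -5.17 members, from -1.91 to -0.701 points of scarred reads, from -5.58 to 2.06 in 1-bp outer deletions, where leaving out R1 turned the sign, and from 1.76 to 20.2 in sharing. Sharing was set over all 6 fish before a fish was left out, so a scar shared only with that fish still counted as shared.

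With the replicate number as a block the differences between Cas9 RNA and Cas9 protein fish were the same, -59.3 members, -1.44 points of scarred reads, -1.48 in 1-bp outer deletions and 10.4 in sharing (exact sign-flip permutation over 3 pairs, p = 0.25, 0.50, 1.00 and 0.50; the smallest possible is 0.25). The fish share only a number: over 816 scars kept in 2 or more fish, deviations from the group mean of log2 share (0.001% added) correlated at -0.0892 for R1 with P1, -2.7e-05 for R2 with P2 and 0.0279 for R3 with P3.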
